A study of Mus musculus with 6 samples.

Results

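The genes described here encode the nuclear subunits of the oxidative phosphorylation complexes I to V. They were chosen by symbol (Nduf followed by a, b, c, s or v and a number, Sdha to Sdhd, Uqcr genes and Cyc1, Cox4 to Cox8 genes, and Atp5 genes) and by a mean level of at least 1 CPM (counts scaled to library size) over 6 libraries. Of 23329 gene symbols in the files, 85 matched by name and 79 reached this level. Complex I had 35 members, complex II 4, complex III 9, complex IV 13 and complex V 15. The other 3 matched by symbol only. Cox4nb is an older symbol of Emc8, a part of the ER membrane complex, and Atp5s and Atp5sl are older symbols of Dmac2l and Dmac2, so 76 members are structural subunits. All 79 passed the filter on low counts and were tested.

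RNA had been sequenced from endothelial cells that were separated from adult brain with magnetic beads and lysed uncultured, as bulk RNA from each mouse. The knockout mice carried an endothelial-cell-specific knockout of Glut1 (the gene Slc2a1, encoding the glucose transporter of the blood-brain barrier) and are labelled GLUT1EC-/-. Wild-type (WT) littermates were their controls. Both groups were C57BL/6 mice 8 weeks old, with 3 libraries each and a separate animal number for every library. The labels name neither the Cre driver nor the exons deleted. In such samples fewer cells of a type and less RNA per cell cannot be told apart. The design compared the transcriptomes of the genotypes, and for these genes it compares the transcripts of the respiratory chain in endothelial cells of mice labelled with and without the knockout.

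Complexes I and II pass electrons from NADH and succinate to ubiquinone, complex III passes them on to cytochrome c, and complex IV reduces oxygen. Complexes I, III and IV pump protons across the inner mitochondrial membrane, and complex V, the ATP synthase, uses the gradient to make ATP. Complex II is encoded wholly in the nucleus, whereas the other complexes also contain subunits made from mitochondrial DNA, which were not analysed here. Endothelial cells are known for making much of their ATP by glycolysis, and brain endothelium for a comparatively high content of mitochondria.

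Total counts were between 35323299 and 37868681 in the GLUT1EC-/- libraries and between 31874662 and 39424384 in the WT libraries, of which the members took 0.438% to 0.507% and 0.429% to 0.480%. GLUT1EC-/- 2 stood apart, with a mean correlation with its own group of 0.971 across genes (0.978 to 0.993 for the other 5 libraries) and a scaling factor of 0.884 (1.01 to 1.05). Counts of Xist and Ddx3y were those of males in GLUT1EC-/- 3 and WT 3 and of females in the other 4 libraries. Slc2a1 had 3735, 5414 and 3893 CPM in GLUT1EC-/- 1 to 3 and 3984, 4479 and 4172 CPM in WT 1 to 3 (log2 fold change 0.05 ± 0.18 SE, adjusted p 0.921 in edgeR). Gene totals can hold reads from outside a deleted part, so this level does not check the labels, and each direction given here is between libraries labelled GLUT1EC-/- and WT. The 10 endothelial markers summed to 16328 to 19301 CPM in GLUT1EC-/- and to 17177 to 18180 CPM in WT libraries, and none was called. Microglial markers summed to 767 to 1591 CPM in GLUT1EC-/- and to 494 to 586 CPM in WT libraries (3 of 10 called higher), fibroblast markers to 166 to 389 CPM and 95.4 to 113 CPM (1 of 7), and proliferation markers to 20.2 to 72.7 CPM and 5.12 to 9.82 CPM (2 of 7). Choroid plexus markers summed to 2884 to 5338 CPM in GLUT1EC-/- and to 3578 to 6363 CPM in WT libraries, highest in WT 3, with none of 5 called. The part of these cells in the values below was not tested.

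No oxidative phosphorylation gene passed the test between libraries labelled GLUT1EC-/- and WT, whose threshold was a Benjamini-Hochberg adjusted p under 0.05 in edgeR's quasi-likelihood test over 14838 genes. The count was 0 of 79, where 1.31% of all genes tested were called (0.863% higher and 0.445% lower in GLUT1EC-/-). At an unadjusted p under 0.05, 6 members were higher and 0 lower, against 8.16% higher and 6.31% lower among all genes, so the number of higher members was near the background. DESeq2 called 1 member, Ndufc2 (adjusted p 0.0330), and edgeR called the same gene without GLUT1EC-/- 2 (adjusted p 0.0449). These settings called far more of all genes as well, 879 of 14838 with DESeq2 and 862 of 15053 without GLUT1EC-/- 2. The differences were small. The log2 fold changes, GLUT1EC-/- over WT, had a median of 0.13, which is a fold of 1.09, with quartiles of 0.01 and 0.26. They ran from -0.59 for Atp5s to 0.64 for Atp5l, and the median over all genes was 0.01. The members' median was 0.20 without WT 3 and 0.08 with library size alone. For 53 of the 79 members the 95% interval of the fold lay within 1.5-fold either way, and for 76 its upper bound was under 2-fold.

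The direction was uneven. The log2 fold change was above 0 for 60 of 79 members, beside 51.5% of all genes. The 3 GLUT1EC-/- libraries all lay above the 3 WT libraries for 18 members (11.7% of all genes did so) and all below for 1, Cox4i2 (11.2% of all genes). Both counts moved with single libraries, as did the share of all genes. Higher members numbered 45 without WT 3 (18.2% of all genes) and 30 without GLUT1EC-/- 1 (14.7%). They numbered 23 without GLUT1EC-/- 2 (18.9%), 20 without GLUT1EC-/- 3 (19.3%), 19 without WT 1 (13.4%) and 18 without WT 2 (14.9%). Lower members numbered 10 without GLUT1EC-/- 3 (19.8%), 3 without GLUT1EC-/- 2 (18.5%) and 2 without WT 1 (13.9%). Without GLUT1EC-/- 1 (14.6%), WT 2 (15.1%) or WT 3 (17.2%) there was 1. With library size alone or upper-quartile scaling, 53 members were above 0.

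**Figure D1:**
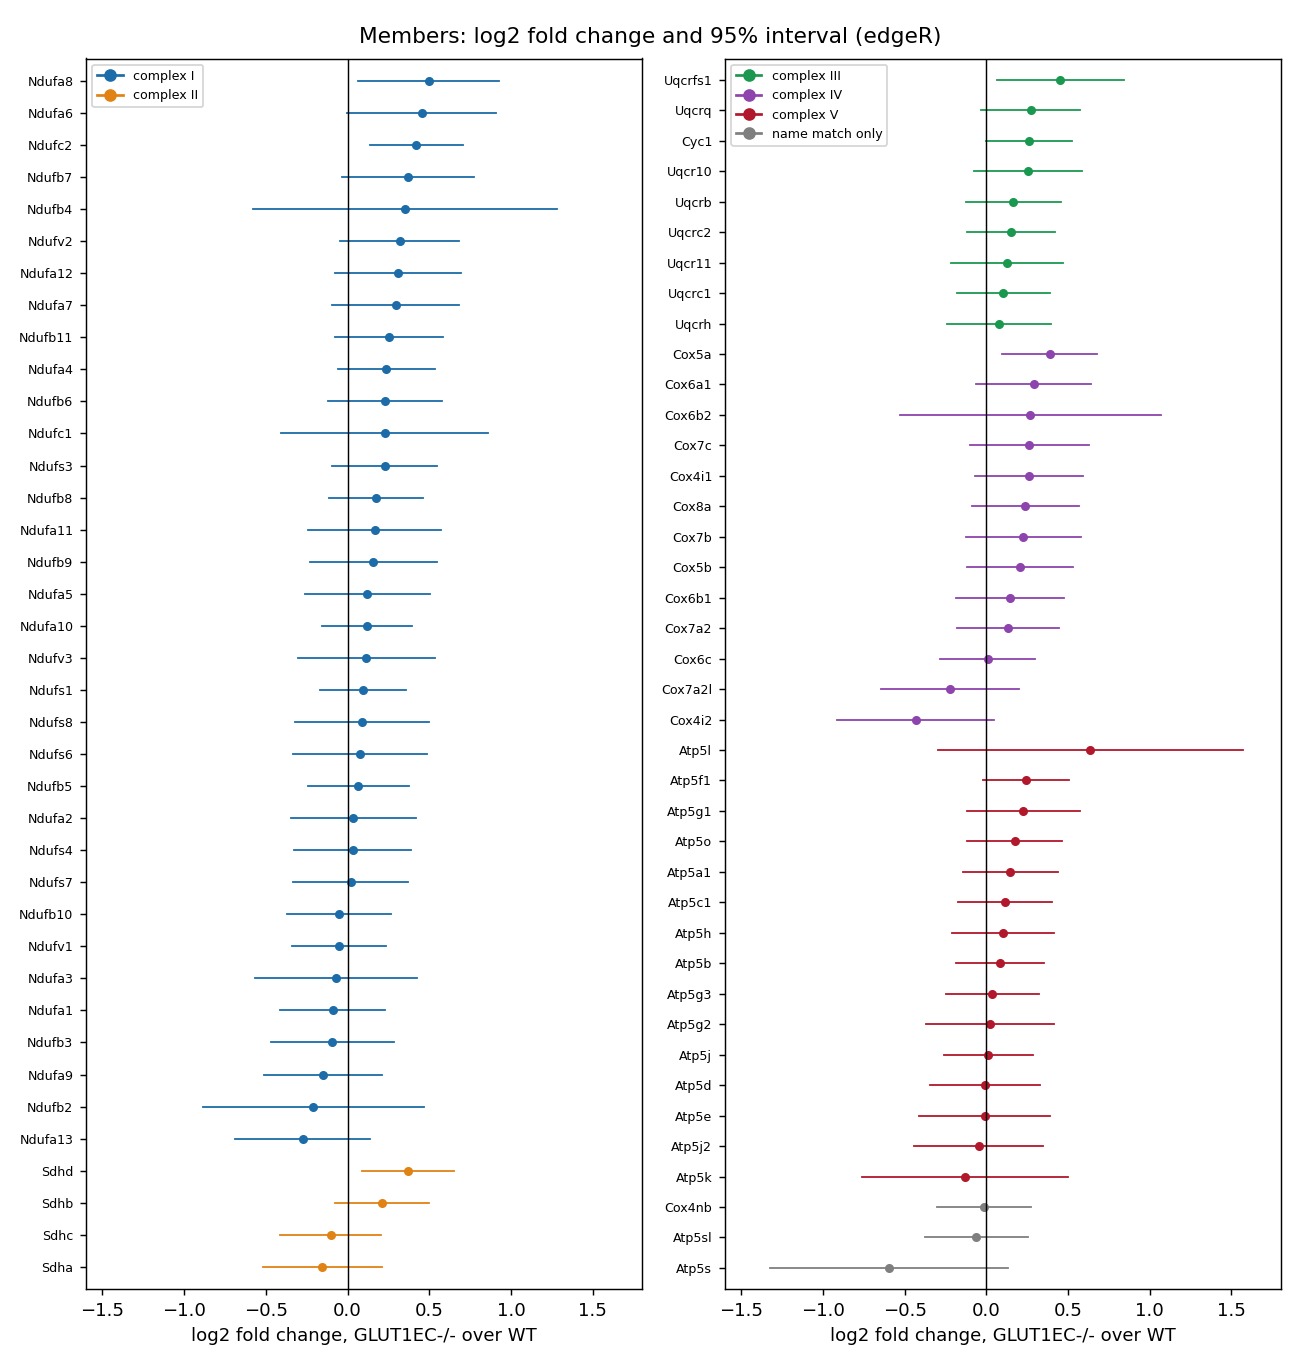
Log2 fold change of each member reported, GLUT1EC-/- over WT, with its 95% interval from edgeR, for complexes I and II on the left and for complexes III to V and the 3 genes that matched by name only on the right. Most points lie to the right of 0, where GLUT1EC-/- is higher, within intervals that mostly include 0, from -0.59 for Atp5s to 0.64 for Atp5l.

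The members with the 5 smallest unadjusted p came from complexes I to IV. Ndufc2, an accessory subunit of the membrane arm of complex I, had 28.8, 27.3 and 29.0 CPM in GLUT1EC-/- 1 to 3 and 21.1, 20.6 and 21.9 CPM in WT 1 to 3. Its groups stood well apart, with a log2 fold change of 0.42 ± 0.12 SE (fold 1.34 with an interval of 1.10 to 1.63, edgeR p 0.00930, adjusted p 0.170). Cox5a, a nuclear subunit of complex IV, had 39.4, 47.1 and 42.4 CPM in GLUT1EC-/- and 31.9, 32.3 and 34.4 CPM in WT libraries (log2 fold change 0.39 ± 0.13 SE, adjusted p 0.211 in edgeR). Sdhd, a membrane anchor of complex II that helps bind ubiquinone, had 43.5, 51.3 and 46.5 CPM in GLUT1EC-/- and 35.3, 37.1 and 36.8 CPM in WT libraries (log2 fold change 0.37 ± 0.12 SE, adjusted p 0.214 in edgeR). Neither gene's groups overlapped.

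Uqcrfs1, the Rieske iron-sulfur protein of complex III, had 32.3, 42.8 and 29.6 CPM in GLUT1EC-/- and 26.4, 26.9 and 23.2 CPM in WT libraries (log2 fold change 0.45 ± 0.17 SE, adjusted p 0.267 in edgeR). GLUT1EC-/- 2 was highest by a wide margin, and without it the log2 fold change was 0.27. Ndufa8, an accessory subunit of complex I on its intermembrane space side, had 61.6, 74.3 and 84.3 CPM in GLUT1EC-/- and 44.6, 46.5 and 64.9 CPM in WT libraries (log2 fold change 0.50 ± 0.19 SE, adjusted p 0.273 in edgeR). Its groups overlapped, since WT 3 exceeded GLUT1EC-/- 1.

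Genes of this group are known targets of NRF1, of GABP (an ETS factor), of YY1 and of the estrogen-related receptors. Upstream sequence was therefore taken from RefSeq (GRCm38.p6) for the 250 bases before each annotated start, found for 62 of the 79 members in 67 windows. Both strands were searched for GCGCA followed by any base and GCGC (NRF1), CCGGAAG (ETS), AAGATGG (YY1) and TNAAGGTCA (estrogen-related receptor). NRF1 letters were in 13 windows (19.4%), against 3.74% of all 32851 windows of that length, and ETS letters in 12 (17.9%), against 6.91%. YY1 letters were in 1 (1.49%, against 4.49%) and receptor letters in 2 (2.99%, against 1.14%). No ETS and YY1 match overlapped, and 3 windows held both NRF1 and ETS letters. A match describes the letters only. The median log2 fold change was 0.13 for the 21 members with NRF1 or ETS letters and 0.13 for the 41 without. The windows of the 5 members with the smallest unadjusted p are printed below, 5′ to 3′ along the gene, with matches in capitals, to show which of them carry these letters. They lie at chr7:97399753-97400002 (+ strand) for Ndufc2, chr9:57520982-57521231 (+) for Cox5a, chr9:50603850-50604099 (-) for Sdhd, chr13:30545317-30545566 (-) for Uqcrfs1 and chr2:36049339-36049588 (-) for Ndufa8.
Ndufc2: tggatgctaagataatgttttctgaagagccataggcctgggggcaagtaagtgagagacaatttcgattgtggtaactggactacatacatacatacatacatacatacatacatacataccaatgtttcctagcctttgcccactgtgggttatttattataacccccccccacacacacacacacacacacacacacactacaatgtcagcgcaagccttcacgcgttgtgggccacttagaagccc
Cox5a: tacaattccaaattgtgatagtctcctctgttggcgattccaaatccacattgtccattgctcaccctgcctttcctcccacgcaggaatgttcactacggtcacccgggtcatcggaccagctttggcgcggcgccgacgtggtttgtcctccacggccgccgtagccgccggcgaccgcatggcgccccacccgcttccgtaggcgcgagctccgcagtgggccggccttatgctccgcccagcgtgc
Sdhd: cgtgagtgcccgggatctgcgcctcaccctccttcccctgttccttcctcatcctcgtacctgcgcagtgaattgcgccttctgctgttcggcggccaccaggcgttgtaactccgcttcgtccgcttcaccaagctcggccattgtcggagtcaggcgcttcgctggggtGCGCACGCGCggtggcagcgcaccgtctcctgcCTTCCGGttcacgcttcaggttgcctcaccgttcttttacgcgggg
Uqcrfs1: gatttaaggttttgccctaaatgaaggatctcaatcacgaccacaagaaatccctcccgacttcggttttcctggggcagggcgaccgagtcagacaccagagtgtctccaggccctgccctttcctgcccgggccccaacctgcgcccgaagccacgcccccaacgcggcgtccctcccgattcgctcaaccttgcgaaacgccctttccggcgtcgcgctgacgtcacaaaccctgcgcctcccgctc
Ndufa8: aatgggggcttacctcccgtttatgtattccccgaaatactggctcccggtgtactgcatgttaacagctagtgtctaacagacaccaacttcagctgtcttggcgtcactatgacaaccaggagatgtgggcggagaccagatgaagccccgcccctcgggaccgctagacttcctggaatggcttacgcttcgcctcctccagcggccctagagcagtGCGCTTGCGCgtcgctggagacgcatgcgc
Sdhd carried NRF1 letters starting 79 bases before its start and ETS letters (in capitals as the opposite strand, CTTCCGG) starting 46 bases before it. Ndufa8 carried NRF1 letters 30 bases before its start, also read on the opposite strand. The windows of Ndufc2, Cox5a and Uqcrfs1 held none of the 4 motifs.

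**Figure D2:**
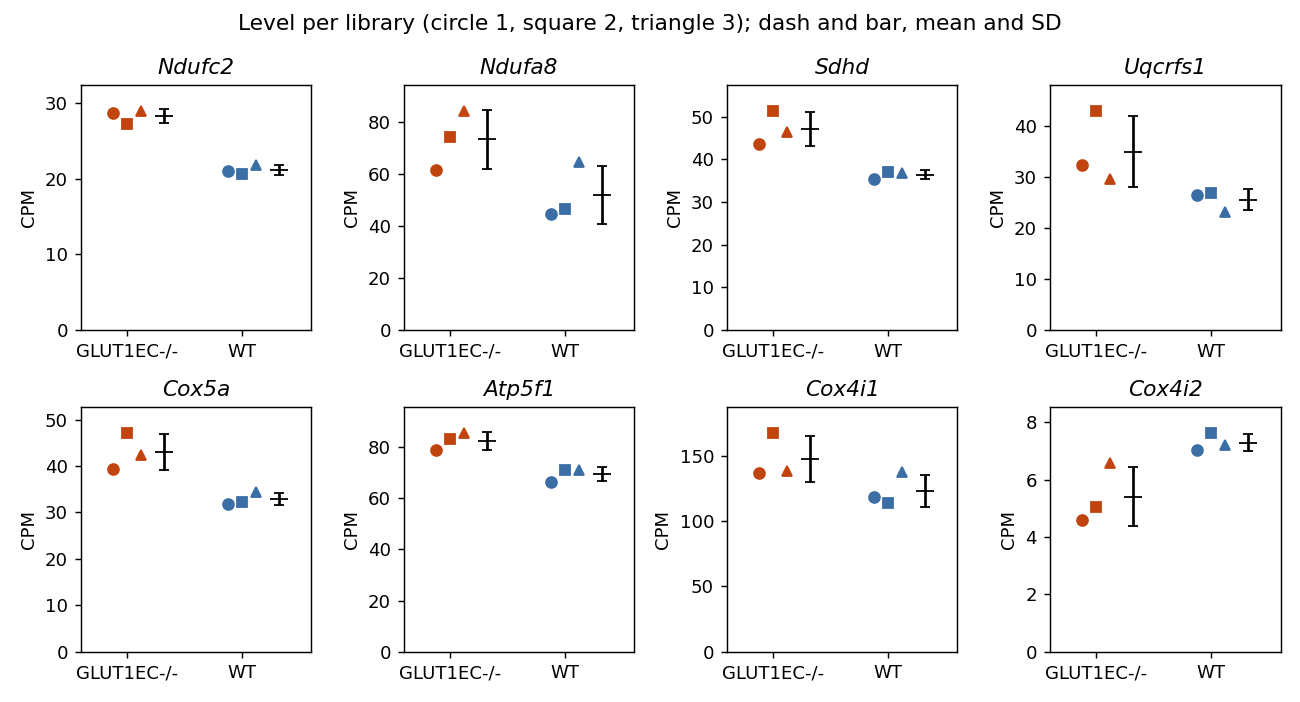
CPM in each library (vertical axes, from 0) of 8 members, with GLUT1EC-/- left of WT, the replicate number given by the marker shape, and mean and SD as dash and bar. Groups do not overlap for Ndufc2, Sdhd, Uqcrfs1, Cox5a, Atp5f1 and Cox4i2, and Cox4i2 is lower in GLUT1EC-/-.

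Complex I is the entry point for electrons from NADH, and its 7 core subunits on the list carry the flavin, the iron-sulfur clusters and the ubiquinone site. Of its 35 members, 27 had a log2 fold change above 0 (median 0.12, and 0.22 without WT 3) and 8 had groups that did not overlap, all higher in GLUT1EC-/- (11.7% of all genes). The core subunits had a median of 0.09, with 6 of 7 above 0. Ndufs1 and Ndufs3 were among those whose groups did not overlap, and Ndufv1, which binds the flavin, was the member below 0 at -0.05. The 28 accessory subunits had a median of 0.14, with 21 above 0. Ndufa6, a small accessory subunit that binds the mitochondrial acyl carrier protein, had 41.0, 64.4 and 40.0 CPM in GLUT1EC-/- and 34.0, 34.5 and 37.7 CPM in WT libraries (log2 fold change 0.45 ± 0.20 SE, adjusted p 0.347 in edgeR). That value rested largely on GLUT1EC-/- 2, without which it was 0.19.

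At the lower end of complex I stood Ndufa13, an accessory subunit also known as GRIM-19, with 41.0, 31.5 and 50.7 CPM in GLUT1EC-/- and 48.5, 47.9 and 52.7 CPM in WT libraries (log2 fold change -0.28 ± 0.18 SE, adjusted p 0.530 in edgeR). Ndufb2, a membrane-arm subunit whose exons overlap another coding gene on the other strand, had 7.21, 4.39 and 10.1 CPM in GLUT1EC-/- and 7.39, 8.65 and 9.04 CPM in WT libraries (log2 fold change -0.21 ± 0.29 SE, adjusted p 0.772 in edgeR). Both owed much of their size to a low GLUT1EC-/- 2: without it Ndufa13 was at -0.12 and Ndufb2 at 0.04. Ndufa7, highest in complex I per length at 114 CPM per kb of transcript, had 54.0, 80.4 and 64.4 CPM in GLUT1EC-/- and 51.2, 50.7 and 60.3 CPM in WT libraries (log2 fold change 0.29, adjusted p 0.478 in edgeR, and 0.12 without GLUT1EC-/- 2). Ndufb4 lay just inside the level required, with 1.23, 1.85 and 1.30 CPM in GLUT1EC-/- and 0.835, 0.847 and 1.72 CPM in WT libraries. Ndufa4 is grouped here by its symbol, although it is now known as a subunit of complex IV, and its groups did not overlap (47.2, 54.0 and 53.6 CPM in GLUT1EC-/-, 39.6, 45.3 and 46.5 CPM in WT libraries).

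Complex II, which is also an enzyme of the citric acid cycle, was split. Besides Sdhd, Sdhb, the iron-sulfur subunit, was above 0 (45.0, 51.9 and 52.9 CPM in GLUT1EC-/-, 45.5, 42.4 and 41.5 CPM in WT libraries, log2 fold change 0.21). Sdhc, the other membrane anchor, was at -0.10. Sdha, the flavin subunit that oxidises succinate, had 168, 119 and 165 CPM in GLUT1EC-/- and 163, 175 and 165 CPM in WT libraries (log2 fold change -0.15 ± 0.16 SE, adjusted p 0.690 in edgeR). GLUT1EC-/- 1 and 3 lay among the WT libraries and GLUT1EC-/- 2 lay below them, and without GLUT1EC-/- 2 the log2 fold change was -0.02. Summed over the 4 genes, complex II was at 294 ± 26.4 CPM in GLUT1EC-/- and 297 ± 5.55 CPM in WT libraries (SD, n = 3 each), a difference of -1.02%.

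Complex III had all 9 members above 0 (median 0.16), and 5 of them, Cyc1, Uqcrfs1, Uqcrc2, Uqcrq and Uqcr10, had groups that did not overlap (11.7% of all genes, higher). Cyc1, the cytochrome c1 that hands electrons to cytochrome c, had 51.8, 52.6 and 56.0 CPM in GLUT1EC-/- and 43.0, 45.5 and 45.2 CPM in WT libraries (log2 fold change 0.26 ± 0.12 SE, adjusted p 0.348 in edgeR). The 2 large structural core proteins were nearer 0, Uqcrc1 at 0.11 and Uqcrc2 at 0.15. Uqcrh, the hinge protein and the complex's most abundant transcript per length (154 CPM per kb), was the lowest at 0.08, with 77.7, 98.6 and 83.6 CPM in GLUT1EC-/- and 76.3, 81.5 and 88.8 CPM in WT libraries, and was at -0.03 without GLUT1EC-/- 2 and 0.02 without WT 1. The complex summed to 549 ± 30.5 CPM in GLUT1EC-/- and 488 ± 26.3 CPM in WT libraries (SD, n = 3 each), 12.4% more, with WT 3 just above GLUT1EC-/- 1.

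Complex IV, the oxidase, had 11 of 13 members above 0 and a median of 0.23, which was 0.14 without WT 1. Cox5a alone had groups that did not overlap with GLUT1EC-/- higher. Cox6a1, its most abundant transcript per length (267 CPM per kb), had 158, 188 and 156 CPM in GLUT1EC-/- and 118, 134 and 158 CPM in WT libraries (log2 fold change 0.29 ± 0.15 SE, adjusted p 0.446 in edgeR), at 0.19 without GLUT1EC-/- 2 or WT 1. WT 3 lay at the level of GLUT1EC-/- 1 and 3, as it did for Cox4i1. The general isoforms Cox8a (83.9, 103 and 103 CPM in GLUT1EC-/-, 75.4, 80.1 and 91.0 CPM in WT libraries) and Cox6b1 (65.4, 67.0 and 79.0 CPM in GLUT1EC-/-, 59.3, 59.2 and 72.8 CPM in WT libraries) were at 0.24 and 0.14, each with WT 3 inside the GLUT1EC-/- range. Cox6b1 was at 0.05 without GLUT1EC-/- 3, 0.09 without WT 1 or WT 2 and 0.25 without WT 3. Cox7a2l was the second member below 0. It encodes SCAF1, a factor that joins complexes III and IV into supercomplexes and of which C57BL/6 mice are known to carry a shortened form. Its level was 90.3, 128 and 85.1 CPM in GLUT1EC-/- and 105, 116 and 133 CPM in WT libraries (log2 fold change -0.22 ± 0.18 SE, adjusted p 0.623 in edgeR), and -0.43 (adjusted p 0.0723) without GLUT1EC-/- 2, which lay high.

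The isoforms of subunit 4 of complex IV went opposite ways. Cox4i2, an isoform known from lung and from cells that sense or adapt to low oxygen, had 4.59, 5.05 and 6.58 CPM in GLUT1EC-/- and 7.02, 7.62 and 7.22 CPM in WT libraries (log2 fold change -0.43 ± 0.21 SE, adjusted p 0.403 in edgeR). Cox4i1, the general isoform, had 137, 168 and 139 CPM in GLUT1EC-/- and 118, 114 and 137 CPM in WT libraries (log2 fold change 0.26 ± 0.14 SE, adjusted p 0.455 in edgeR), and was at 0.15 without GLUT1EC-/- 2. Neither passed the test. Per transcript length, Cox4i2 made up 3.36%, 3.02% and 4.68% of both isoforms in GLUT1EC-/- and 5.79%, 6.48% and 5.16% in WT libraries, a mean of 3.69% ± 0.876 against 5.81% ± 0.663 (SD, n = 3 each, two-sided exact permutation p 0.1, the smallest that 3 against 3 allow). Adjusted over the 10 isoform shares compared, this exact permutation p was 0.2. Cox4i2 is also abundant in pericytes, whose 8 markers summed to 878, 1094 and 900 CPM in GLUT1EC-/- and 783, 937 and 836 CPM in WT libraries, with none called.

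Other isoform shares that reached the same exact permutation p of 0.1 (adjusted 0.2) were those of Cox7a2, Cox7a2l, Atp5g1 and Cox6a2. Of the Cox7a transcripts per length, Cox7a2 made up 39.9% ± 2.64 in GLUT1EC-/- and 33.9% ± 1.72 in WT libraries, and Cox7a2l 59.3% ± 3.21 and 64.8% ± 1.94 (SD, n = 3 each). Those 2 shares are nearly mirror images, because Cox7a1, the heart and muscle isoform, was at about 1%. The tissue-restricted isoforms were near or under the level required. Cox6b2, the testis isoform, was just inside it, with 2.51, 1.37 and 3.01 CPM in GLUT1EC-/- and 1.83, 1.69 and 2.19 CPM in WT libraries. Just outside were Cox7a1, with 0.392, 0.299 and 0.839 CPM in GLUT1EC-/- and 0.928, 0.730 and 0.813 CPM in WT libraries, and Cox8b, with 1.20, 0.627 and 0.541 CPM in GLUT1EC-/- and 0.650, 0.380 and 0.591 CPM in WT libraries.

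Below the level required were 4 more genes. Cox6a2, the heart and muscle isoform of subunit 6a, is described after its values had been seen. It had 11, 16 and 18 counts in GLUT1EC-/- and 4, 1 and 1 counts in WT libraries (log2 fold change 2.80 ± 0.69 SE, edgeR p 0.00358, adjusted p 0.112), so its groups did not overlap at very low counts. Itgad, which overlaps it on the other strand, was at about 0.07 CPM in both groups. Ndufs5, a subunit that complex I always contains, had 6, 9 and 13 counts in GLUT1EC-/- and 10, 4 and 19 counts in WT libraries. Cox8c, a testis isoform, had 2 counts in GLUT1EC-/- 2 and 0 elsewhere, and Cox7b2 had none in any library.

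Complex V, the ATP synthase, held the most abundant members. Atp5b, the catalytic beta subunit and the most abundant transcript per length among all members (301 CPM per kb), had 594, 589 and 599 CPM in GLUT1EC-/- and 567, 552 and 562 CPM in WT libraries. The groups did not overlap, yet the log2 fold change was 0.08 ± 0.12 SE (fold 1.06 with an interval of 0.878 to 1.28, edgeR adjusted p 0.775). Atp5a1, the alpha subunit, did not overlap either (426, 478 and 417 CPM in GLUT1EC-/-, 404, 406 and 382 CPM in WT libraries, log2 fold change 0.15). Atp5d and Atp5e, the delta and epsilon subunits of the central stalk, were at -0.01 each. Of the 15 members 11 were above 0, with a median of 0.08.

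Outside the catalytic head, Atp5f1, the b subunit of the peripheral stalk, was the member with groups apart. It had 78.7, 83.0 and 85.5 CPM in GLUT1EC-/- and 66.4, 71.1 and 71.1 CPM in WT libraries (log2 fold change 0.24 ± 0.11 SE, adjusted p 0.388 in edgeR), and its exons overlap Wdr77 on the other strand (the strand setting of the counting is not given in the sources used here). The 3 genes Atp5g1, Atp5g2 and Atp5g3 encode the same mature c subunit of the membrane ring. Their log2 fold changes were 0.23, 0.02 and 0.04, and with upper-quartile scaling or library size alone Atp5g2 and Atp5g3 fell on the other side of 0. Atp5g1 made up 9.57% ± 0.550 of the 3 transcripts per length in GLUT1EC-/- and 8.42% ± 0.477 in WT libraries (SD, n = 3 each). Atp5g1 was at 0.37 without WT 3 and 0.13 without WT 1. Among the small membrane subunits, single libraries weighed heavily. Atp5l, subunit g, had 3.71, 8.04 and 2.63 CPM in GLUT1EC-/- and 3.03, 2.69 and 3.50 CPM in WT libraries, and its log2 fold change, 0.64 ± 0.41 SE with an adjusted p of 0.522 in edgeR, was 0.04 without GLUT1EC-/- 2. Atp5k, subunit e, had 16.5, 9.98 and 21.5 CPM in GLUT1EC-/- and 19.1, 14.2 and 19.2 CPM in WT libraries, at -0.13, and at 0.11 without GLUT1EC-/- 2. Atp5j2, subunit f, was at -0.05, and at 0.06 without that library.

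Summed over all 79 members, the level was 4544, 4952 and 4849 CPM in GLUT1EC-/- 1 to 3 and 4230, 4260 and 4663 CPM in WT 1 to 3. WT 3 thus lay above GLUT1EC-/- 1, and the means of 4782 ± 212 and 4384 ± 242 CPM (SD, n = 3 each) differed by 9.06%. Complex I summed to 1289 ± 95.6 CPM in GLUT1EC-/- and 1153 ± 91.5 CPM in WT libraries, and complex IV to 857 ± 77.0 and 764 ± 80.6 CPM. For both, WT 3 exceeded at least 1 GLUT1EC-/- library. Complex V summed to 1690, 1729 and 1768 CPM in GLUT1EC-/- and 1596, 1587 and 1660 CPM in WT libraries, without overlap, a difference of 7.11%. Much of that sum came from Atp5b and Atp5a1, with means of 577 and 419 CPM over all libraries. The median member of complex V did not separate the groups. It lay 0.12 above the WT mean (log2) in WT 3, and 0.08 and 0.06 above it in GLUT1EC-/- 1 and 2. No test was made of these sums, since the members had been chosen.

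**Figure D3:**
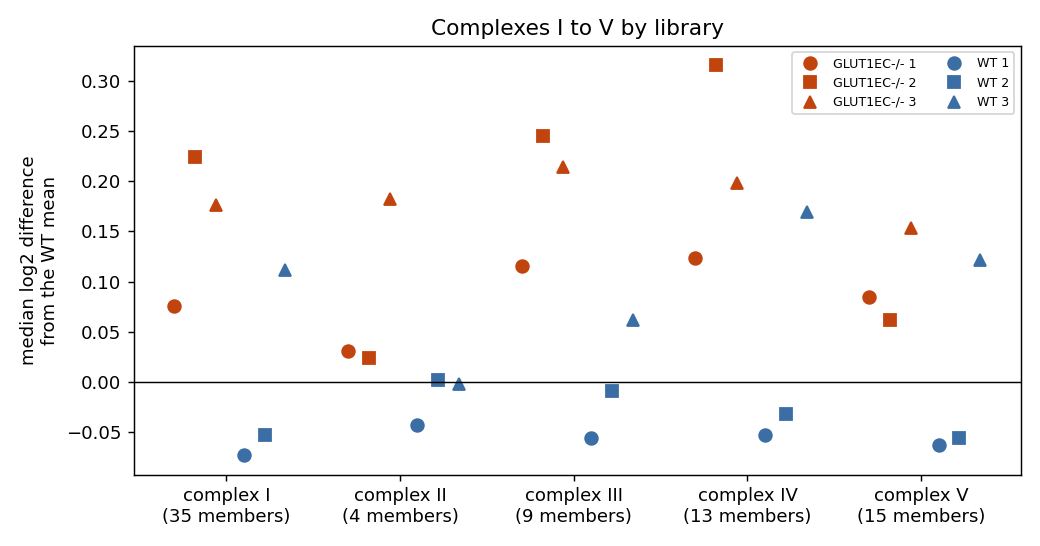
Median over each complex's members of the log2 difference from the WT mean (vertical axis, on CPM plus 0.5), 1 point for each library, with GLUT1EC-/- left of WT. WT 3 lies above the other WT libraries in all complexes but complex II, and it lies among the GLUT1EC-/- libraries in complexes I, IV and V but below them, at 0.06 against 0.12 to 0.24, in complex III.

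Libraries of the same group also differed from each other. WT 3 was the highest WT library for 61 of 79 members, and its median member lay 0.12 above the WT mean on the log2 scale, while WT 1 and WT 2 lay at -0.06 and -0.04. GLUT1EC-/- 1, 2 and 3 lay at 0.08, 0.17 and 0.17. In GLUT1EC-/- 2, 41 of the 79 members lay above every WT library and 17 below every WT library. GLUT1EC-/- 3 had 49 above and 4 below, and GLUT1EC-/- 1 had 26 above and 17 below. The share of all genes beyond the WT range in each library was not counted. These numbers thus have no background beside them, and nothing about the members is read from them. The median coefficient of variation of a member was 11.2% over GLUT1EC-/- and 8.39% over WT libraries.

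Comparisons within subsets of libraries kept a positive median. Between females (GLUT1EC-/- 1 and 2, WT 1 and 2) the median log2 difference of the members was 0.18, with 61 of 79 above 0, and between the males (GLUT1EC-/- 3, WT 3) it was 0.07, with 49 above 0. In all genes these medians were 0.01 and 0.00, with 51.3% and 50.1% above 0. With sex as a term in edgeR, a choice made after seeing the data, the median was 0.13 and 0 members were called. The animal numbers fall into a 200s and a 500s series, and within these the median was 0.12 (GLUT1EC-/- 1 against WT 1 and 2) and 0.05 (GLUT1EC-/- 2 and 3 against WT 3). Over all genes tested the medians within these series were -0.001 and 0.015. The 500s comparison sets a female and a male against a male. Complex III kept 0.15 in both series, whereas complex IV was at 0.22 and 0.06.

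Median log2 fold changes over all genes differed slightly between classes of transcript length, with no steady trend up to the class over 4000 bases (0.03). The members' median transcript length was 865 bases. All genes tested had a median log2 fold change of 0.04 under 600 bases, 0.06 from 600 to 1000, 0.01 from 1000 to 2000 and -0.00 from 2000 to 4000. In the same 4 classes the members had 0.16 (20 genes), 0.16 (27), 0.12 (23) and 0.02 (8). The 1 member over 4000 bases was at -0.01 (0.03 for all such genes). The medians over all genes include the members. The part of transcript length in the members' offset was not tested. Genes under 1000 bases took 4.97%, 5.03% and 5.12% of the counts in GLUT1EC-/- 1 to 3 and 4.70%, 4.69% and 5.37% in WT 1 to 3, so WT 3 was highest here too.

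Genes that serve the complexes without being subunits of them gave no calls either, where 1.31% of all genes tested were called. At that share, lists this short would hold few calls. Assembly factors lay on the other side of 0: 13 of 49 were above 0 and 36 below, with a median of -0.10. Those of complex I had 1 of 15 above 0 (median -0.11), those of complex II 1 of 4 (-0.09), those of complex III 1 of 6 (-0.14) and those of complex IV 7 of 21 (-0.08). The 3 assembly factors of complex V were all above 0 (median 0.11). Ndufaf2, a late-acting complex I assembly factor, had 4.99, 4.42 and 5.85 CPM in GLUT1EC-/- and 4.95, 6.02 and 7.59 CPM in WT libraries (log2 fold change -0.28, adjusted p 0.624 in edgeR). Cox10, an enzyme on the way to the heme a of complex IV, went the other way at 0.35 (edgeR adjusted p 0.461). The 76 proteins of the mitochondrial ribosome had a median of 0.05, with 42 above 0. Symbols of the cytosolic ribosome, which also match a few S6 kinases, had 88 of 99 above 0 and a median of 0.24, with 0 called. Their sums were 19518, 23709 and 17858 CPM in GLUT1EC-/- and 16613, 16977 and 17706 CPM in WT libraries.

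Regulators of mitochondrial biogenesis were evenly divided, with 9 of 17 above 0 and a median of 0.00. Ppargc1b, which encodes the coactivator PGC-1beta, had 2.95, 3.02 and 5.39 CPM in GLUT1EC-/- and 5.69, 5.26 and 6.60 CPM in WT libraries (log2 fold change -0.63 ± 0.29 SE, adjusted p 0.375 in edgeR). Enzymes of coenzyme Q synthesis had 4 of 13 above 0 (median -0.09), other dehydrogenases that reduce ubiquinone 4 of 8 (-0.04) and mitochondrial antioxidant genes 4 of 10 (-0.09). Sod2, the superoxide dismutase of the matrix, had 52.2, 87.0 and 47.1 CPM in GLUT1EC-/- and 43.7, 50.5 and 38.5 CPM in WT libraries (log2 fold change 0.49, adjusted p 0.405 in edgeR). Its offset came mainly from GLUT1EC-/- 2.

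Carriers of the inner membrane and uncoupling proteins had 10 of 12 above 0, with a median of 0.15. Ucp2, a carrier of the uncoupling protein family, had 550, 1040 and 967 CPM in GLUT1EC-/- and 315, 352 and 394 CPM in WT libraries. All 3 GLUT1EC-/- libraries were higher, with a log2 fold change of 1.27 ± 0.24 SE and an adjusted p of 0.0505 in edgeR, just outside the threshold. Slc25a1, the citrate carrier, had 67.0, 54.8 and 70.6 CPM in GLUT1EC-/- and 78.8, 80.0 and 100 CPM in WT libraries (log2 fold change -0.43 ± 0.16 SE, adjusted p 0.257 in edgeR). Ucp2 is also abundant in microglia, whose summed markers were higher in GLUT1EC-/- libraries as given above. Their median marker lay at 0.97, -0.12 and 1.62 (log2, against the WT mean) in GLUT1EC-/- 1 to 3, while Ucp2 was highest in GLUT1EC-/- 2. The part of microglia in the level of Ucp2 was not tested.

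Subunits and regulators whose symbols fall outside the naming used here had 6 of 9 above 0 and a median of 0.06. AA467197, whose human counterpart C15orf48 is a paralogue of NDUFA4 that can take its place in complex IV, had 1.44, 2.54 and 0.514 CPM in GLUT1EC-/- and 0.278, 0.234 and 0.123 CPM in WT libraries (log2 fold change 2.82 ± 0.66 SE, adjusted p 0.0939 in edgeR). The groups did not overlap, at low levels. Higd2a, a complex IV factor, had 61.7, 88.5 and 71.3 CPM in GLUT1EC-/- and 49.5, 51.7 and 66.6 CPM in WT libraries (log2 fold change 0.40, adjusted p 0.362 in edgeR). Cycs, cytochrome c itself, was at -0.01.

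**Figure D4:**
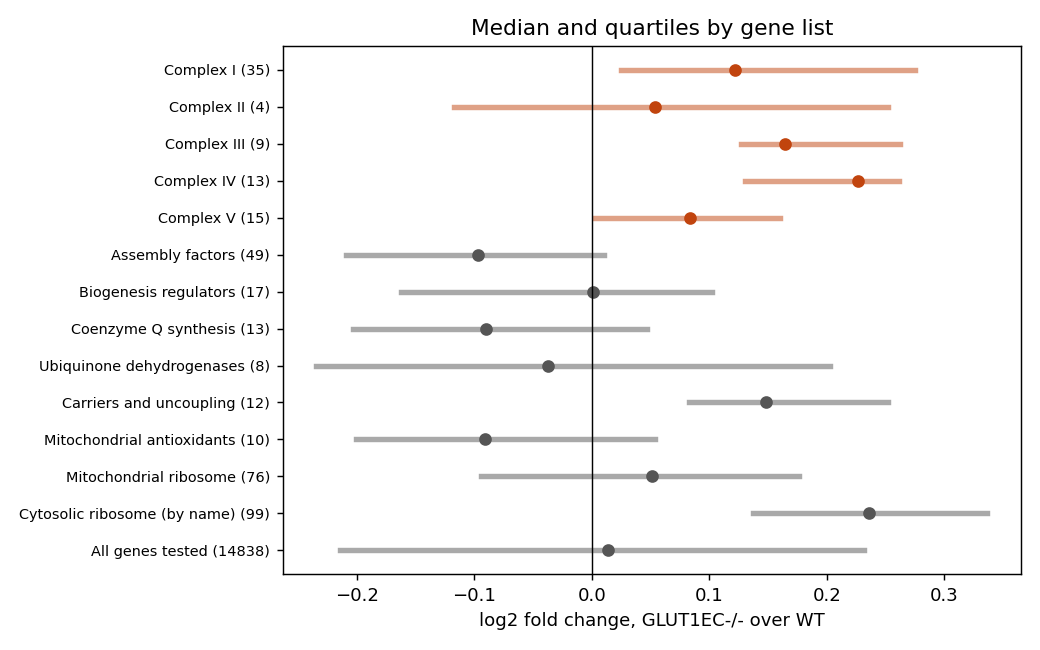
Median (point) and quartiles (bar) of the log2 fold changes, GLUT1EC-/- over WT, for the members of each complex, the other gene lists and all genes tested, with the number of genes in brackets. Complexes I, III and IV centre on 0.12, 0.16 and 0.23, the 49 assembly factors on -0.10 and the cytosolic ribosome on 0.24.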

How the data were processed

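Per the labels' protocols, stranded mRNA libraries (Illumina TruSeq) were read single-end at 100 bases. Per the submitters' processing notes, the authors used STAR, featureCounts and GRCm38. Versions, annotation, strand setting and the treatment of reads that map to several places are not given in the sources used here, which can alter genes with near-identical copies or overlapping neighbours: 21 members overlap a coding gene on the other strand and 4 on the same strand. The deposited values are raw counts per gene symbol.

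Libraries were grouped by the genotype label. Counts were tested with edgeR 4.0.16 in R 4.3.3 (quasi-likelihood F test, TMM scaling, filterByExpr with a minimum count of 10 and total of 15, robust dispersions, genotype as the only term), adjusted by Benjamini-Hochberg over 14838 genes at 0.05. The p-values rest on the spread between 3 libraries a group, with each gene's dispersion drawn toward those of all genes tested. The biological coefficient of variation was 23.2%. Levels are CPM with TMM factors. The SE was taken as the size of the log2 fold change over the root of the F statistic. Library medians and within-subset values are log2 of CPM plus 0.5. Lengths are those of the principal coding transcript in GENCODE M21 on GRCm38. Symbols were matched to RefSeq (GRCm38.p6): 20748 were current, 2331 were single synonyms and 250 were unmatched.

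Named members were the extremes of each complex, the most abundant per length, the isoform sets, the genes next to the level required and the 5 smallest p. Of each other list, up to 2 of the smallest p were candidates. Ndufs1, Ndufs3, Ndufv1, Ndufa4, Sdhb, Sdhc, the other complex III genes, Atp5a1, Atp5d, Atp5e and Cycs were described after their values were seen, to complete a complex, as was Cox6a2. A member is counted but not reported by name here. The members and lists were chosen with earlier results of these data known. DESeq2 1.42.0, limma-voom in limma 3.58.1 and other scalings, filters and subsets were the alternatives. The script was tested on simulated counts.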

Additional observations from a re-analysis of the deposited data

How the results depend on the processing

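No paired analysis was possible because each library's label carries an animal number of its own, with none shared between the groups (1 to 3 here follow accession order). The count of called members was 0 except with DESeq2 and without GLUT1EC-/- 2, where it was 1 (0 to 1 over the libraries left out). Calls over all genes numbered 194. They were 879 with DESeq2, 14 with the animal number series as a term, 113 with sex as a term, 429 at an adjusted p of 0.1 and 0 to 862 with each library left out: WT 1 (0), WT 2 (1), WT 3 (5), GLUT1EC-/- 1 (32), GLUT1EC-/- 2 (862). The members' median log2 fold change ran from 0.08 with library size alone or with the series term to 0.20 without WT 3. With each library left out, the median of complex I ran from 0.0866 to 0.221 (0.22 without WT 3), that of complex IV from 0.143 to 0.317 (0.14 without WT 1), that of complex II from -0.0156 to 0.106, that of complex III from 0.117 to 0.232 and that of complex V from -0.00465 to 0.119. The cause was not tested. Members with groups apart numbered 18 to 45 higher and 1 to 10 lower. Over the same settings the share of all genes ran from 11.7% to 19.3% higher and from 11.2% to 19.8% lower.

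Log2 fold changes near 0 changed sign. Slc2a1 was at -0.00093 with upper-quartile scaling, -0.0200 with library size alone and -0.0112 with the series term, and ran from -0.149 to 0.144 with each library left out. Atp5g2 was at -0.0117, -0.0192 and -0.0129 under those 3 settings and ran from -0.0825 to 0.165, and Atp5g3 was at -0.00022, -0.0117 and -0.0189 and ran from -0.00522 to 0.1003. Ndufb2 ran from -0.527 to 0.0390, Uqcrh from -0.0342 to 0.148, Atp5k from -0.402 to 0.111 and Atp5j2 from -0.234 to 0.0586, in each case with GLUT1EC-/- 2 left out on the other side of 0 (Atp5j2 at 0.0095 also without GLUT1EC-/- 1). With 3 libraries a group, precision is limited: the intervals of 53 of the 79 members lay within 1.5-fold.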
